A study of Mus musculus with 11 samples.

Results

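The subject is a set of 10 genes whose products shape and carry mitotic chromosomes: the 8 subunit genes of condensin, the topoisomerase gene Top2a and Mki67, which encodes the proliferation antigen Ki-67. They were taken by symbol from the deposited tables, with 1 transcript per gene, and all 10 were found among the 24064 genes of the tables from scatter-gated cells. The study measured RNA of haematopoietic stem cells (HSCs), the cells that give rise to every blood lineage, from livers of newborn wild-type C57BL/6 mice at postnatal day 0. HSCs were sorted as cells without lineage markers or CD48 and with Sca1, cKit and CD150, and pools of 100 to 200 cells were made into Smart-seq2 libraries, a full-length cDNA method for small inputs. The libraries form 3 groups of the same strain, genotype and age with no treatment named: 4 libraries gated high on forward scatter area (FSC-A High), 3 gated low on it (FSC-A Low) and 4 with no scatter gate named (unfractionated). Forward scatter area is a cytometer reading that follows cell size. Where the scatter gates were set, and whether each replicate had its own animals, is not in the labels. The p-values therefore measure only the spread between these libraries, which may be technical.

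Condensin is a ring-shaped ATPase that folds chromatin into loops and so compacts chromosomes for mitosis. Both of its forms are built on the SMC pair made from Smc2 and Smc4. Condensin I adds the kleisin Ncaph and the HEAT-repeat subunits Ncapd2 and Ncapg, and reaches chromosomes after the nuclear envelope breaks down. Condensin II adds Ncaph2, Ncapd3 and Ncapg2 instead, and is nuclear through interphase. Top2a encodes topoisomerase II alpha, which passes DNA strands through each other and is made mainly in cycling cells. Ki-67 coats mitotic chromosomes and keeps them apart from each other, and its loss from resting cells is what makes it a marker of proliferation.

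The promoters of these genes are shown first, since most members differed between the scatter gates; the words in them were not tested against those differences. In dividing cells many mitotic genes are read through a short word called the cell cycle genes homology region (CHR), which the DREAM complex binds in resting cells and B-Myb and FoxM1 complexes bind in cycling cells, often beside CCAAT boxes bound by NF-Y. RefSeq promoter windows of 300 bases on GRCm38.p6, the assembly named mm10, run from 250 bases before to 50 after an annotated start, and 9 of the 10 members had one. Smc4 had no entry. Searched on both strands, a CHR-type word (TTTGAA or TTCGAA) stood in 7 of the 9 windows, against 19.2% of 32841 windows in the table. CCAAT stood in 5 of 9, against 37.4%, and all 5 also held a CHR-type word, a combination found in 7.52% of windows. An E2F-type word (TTGGCGC, or else the spelling TTCGCGC or the spelling TTCCCGC) stood in 6 of 9, against 8.07%. A match is a description of letters and was not tested as a binding site.

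The CHR-type word nearest to and upstream of the annotated start is shown here in capitals, within 30 bases read 5′ to 3′ on the strand of the gene, to compare condensin I, condensin II and the other members. Where it reads TTCAAA, the word lies on the opposite strand.
Smc2: tcgctttccatgTTCAAAacggtatagtct
Ncapd2: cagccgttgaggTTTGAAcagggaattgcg
Ncapg: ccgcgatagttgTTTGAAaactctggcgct
Ncapg2: tacgcgggtgtgTTTGAAtctggtccgagc
Ncaph2: cttctttacttcTTCGAAactgggcccgcc
Top2a: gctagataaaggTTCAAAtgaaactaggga
Mki67: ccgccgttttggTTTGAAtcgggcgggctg
These stretches lie at chr4:52439064-52439093 (plus strand), chr6:125191692-125191721 (minus), chr5:45669883-45669912 (plus), chr12:116405406-116405435 (plus), chr15:89355685-89355714 (plus), chr11:99024195-99024224 (minus) and chr7:135716460-135716489 (minus). The word began 30 bases before the start in Ncapg, 18 in Ncapg2, 22 in Ncaph2 and 23 in Top2a, and farther out in Smc2 (145), Ncapd2 (123) and Mki67 (98). The start used is not always the outermost: the whole Ncapd2 window and the words of Ncapg and Ncapg2 lie inside the RefSeq span of their genes. The searched windows of Ncaph and Ncapd3 held neither spelling.

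The longer upstream windows of Top2a and Mki67 are shown because they held the most words. Capitals mark CHR-type words and CCAAT, and both windows end before the 5′ edge of the gene's RefSeq span.
Top2a: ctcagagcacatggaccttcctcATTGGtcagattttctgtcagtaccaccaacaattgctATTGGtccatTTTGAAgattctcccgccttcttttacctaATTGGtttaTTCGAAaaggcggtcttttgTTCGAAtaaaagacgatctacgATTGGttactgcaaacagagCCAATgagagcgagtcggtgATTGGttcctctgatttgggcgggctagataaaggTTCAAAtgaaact
Mki67: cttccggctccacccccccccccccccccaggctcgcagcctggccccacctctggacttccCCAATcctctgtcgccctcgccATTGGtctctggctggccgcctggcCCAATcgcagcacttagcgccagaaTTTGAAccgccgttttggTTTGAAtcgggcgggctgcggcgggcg
They are chr11:99024200-99024439 and chr7:135716451-135716629, both on the minus strand. Over its whole 300-base window Top2a held 6 CCAAT and 4 CHR-type words, and Mki67 held 3 CCAAT, 2 CHR-type words and 1 E2F-type word.

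**Figure D1:**
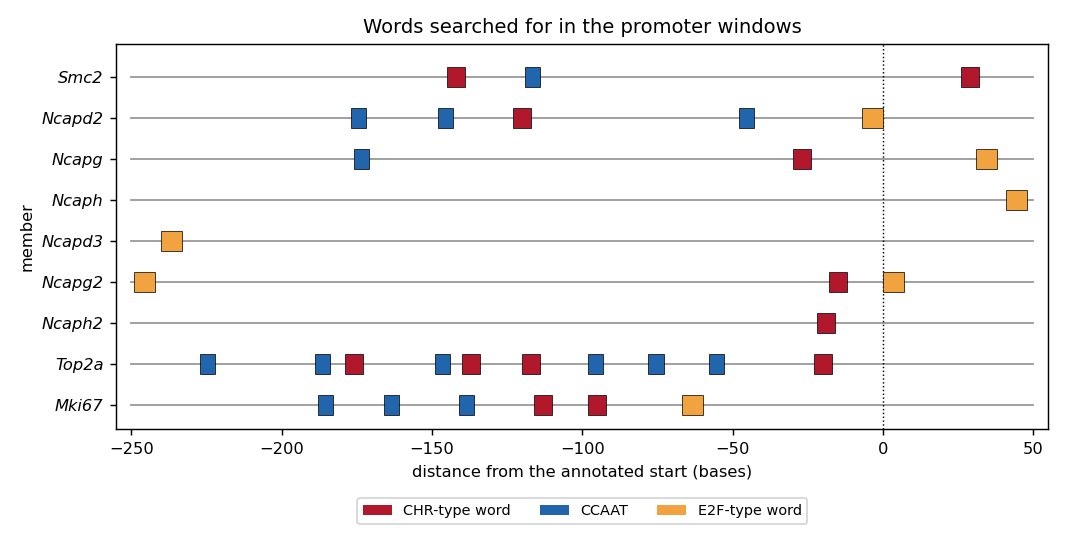
Positions of the searched words in the promoter windows of 9 members, plotted as distance in bases from the annotated start, with CHR-type words in red, CCAAT in blue and E2F-type words in orange. Top2a holds 6 CCAAT and 4 CHR-type words, Ncaph2 holds 1 CHR-type word and nothing else, and the searched windows of Ncaph and Ncapd3 hold only 1 E2F-type word each.

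The gated libraries are given in RPKM, reads scaled to transcript length and library size, at an estimated depth of about 65500000 to 98100000 reads each. The unit was inferred from the values. RPKM divides by length, and levels of different genes are set side by side on it as a description only. A trend on length and GC content remained between libraries. Its removal changed the number of genes called between the gates from 2902 to 1807. Rank correlations over genes (Spearman) ran from 0.862 to 0.890 for pairs of libraries from different gates, and from 0.920 to 0.954 for pairs from the same gate. As a check of the sort, all 10 listed HSC and sort genes were detected, at a summed 325 to 412 RPKM in FSC-A High and 533 to 680.4 in FSC-A Low, with 6 of them lower in FSC-A High. Of the 8 measured genes of lineage antigens and CD48, 3 (Cd3e, Cd8a and Ms4a1) were at 0 throughout, 7 stayed under 1 RPKM in every library, and Cd48 reached 3.32. Endothelial and stromal genes summed to at most 2.29 RPKM. The erythroid list summed to 111 to 239.7 RPKM in the FSC-A High libraries and 69.4 to 102 in those of FSC-A Low, led by Hbb-bt, while Alas2 stayed under 1. The myeloid list, led by Lyz2, summed to 289.8 to 426 and 271 to 276 RPKM. Hepatocyte genes summed to 57.2 to 66.9 and 50.9 to 74.3 RPKM, mostly Trf, and megakaryocyte genes to 72.3 to 105 and 55.6 to 68.3. The lymphoid list summed to 18.0 to 56.1 and 18.6 to 32.1 RPKM, nearly all of it Cd79b. The part of these cell types in the differences described next was not tested.

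The comparison of FSC-A High with FSC-A Low asks how the RNA of newborn liver HSCs differs with forward scatter. Of the 10 members, 8 were higher in FSC-A High, none was lower and 2, Ncapd3 and Ncapg2, did not pass (limma on log2(RPKM + 1), Benjamini-Hochberg adjusted p below 0.05 over 10619 genes). Among all genes tested, 27.3% were called, 15.6% as higher and 11.7% as lower. The members' median log2 difference was 1.91, against -0.04 for all genes tested. In 9 of the 10 members the libraries of the gates did not overlap, against 34.9% of all genes tested, or 18.9% in the direction of FSC-A High. All 3 condensin I subunits and both SMC subunits rose by log2 differences of 1.55 to 2.33, while the condensin II subunits ranged from 0.15 to 0.78. In bulk libraries such as these, fewer cells that hold a transcript and less of it per cell cannot be told apart.

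**Figure D2:**
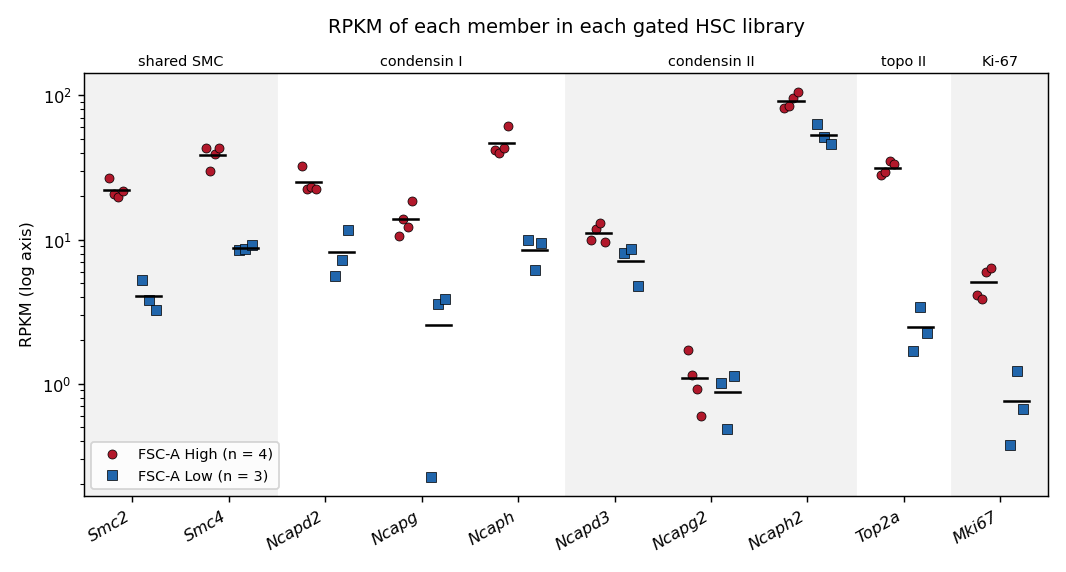
RPKM on a log axis for the 10 members, with 1 point per library (red circles, 4 FSC-A High; blue squares, 3 FSC-A Low) and a bar at each group mean. The groups are apart in 9 members and overlap in Ncapg2, the lowest member of the FSC-A High libraries, while Ncaph2 is the highest in both gates.

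The SMC ATPases common to both complexes rose. Smc2, on chromosome 4 (52439221 to 52488365), stood at 26.7, 20.8, 19.7 and 21.7 RPKM in FSC-A High replicates 1 to 4 and at 5.23, 3.80 and 3.24 RPKM in FSC-A Low replicates 1 to 3. The lowest FSC-A High library was well above the highest FSC-A Low library. The group means were 22.2 ± 3.10 (SD, n = 4) and 4.09 ± 1.02 RPKM (SD, n = 3), a ratio of 5.43, and the log2 difference was 2.20 (SE 0.25, limma adjusted p = 7.07e-05). Smc4, on chromosome 3 (69004738 to 69034623), stood at 43.3, 30.1, 39.1 and 42.8 RPKM in FSC-A High and 8.50, 8.58 and 9.12 RPKM in FSC-A Low. The FSC-A Low libraries were close to each other, and all FSC-A High libraries lay above them. Its means were 38.8 ± 6.13 and 8.73 ± 0.340 RPKM, with a log2 difference of 2.02 (SE 0.21, adjusted p = 3.94e-05). The gene span of Smc4 also holds the microRNA genes Mir15b and Mir16-2, which share no annotated exon bases with it.

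The partners that are found only in condensin I rose by similar amounts. Ncaph, the kleisin that closes the condensin I ring (chromosome 2, 127103809 to 127133954), stood at 41.9, 39.9, 43.4 and 61.3 RPKM in FSC-A High and 9.87, 6.14 and 9.40 RPKM in FSC-A Low. Replicate 4 was the highest of the FSC-A High libraries, and the gates did not overlap. The means of 46.6 ± 9.90 and 8.47 ± 2.03 RPKM gave a log2 difference of 2.33 (SE 0.24, adjusted p = 2.88e-05). Ncapd2, a HEAT-repeat subunit (chromosome 6, 125168007 to 125192100), stood at 32.2, 22.6, 23.0 and 22.5 RPKM in FSC-A High and 5.61, 7.17 and 11.6 RPKM in FSC-A Low. Here FSC-A High replicate 1 was the high library and the other 3 were nearly equal. Its log2 difference, 1.55 (SE 0.27, adjusted p = 0.00111), was the smallest of the condensin I set.

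Ncapg, the other HEAT-repeat subunit of condensin I (chromosome 5, 45669891 to 45700547), stood at 10.6, 13.9, 12.2 and 18.4 RPKM in FSC-A High and 0.225, 3.60 and 3.86 RPKM in FSC-A Low. FSC-A Low replicate 1 was far below the other libraries of its gate, at a level worth about 60.2 reads, the fewest of any member in any gated library. The log2 difference was 2.27 (SE 0.44, adjusted p = 0.00246), and without that library it was 1.62 (adjusted p = 0.00334). With a pseudocount of 5 it was 1.34 (adjusted p = 0.00107). Of its annotated exonic bases, 13.4% are shared with Lcorl on the opposite strand, and the sources used here do not say whether reads were counted by strand.

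Of the condensin II subunits 1 passed, and differences among the subunits were not tested. Ncaph2, its kleisin (chromosome 15, 89355719 to 89372850), was the most abundant member in both gates, at 82.3, 84.0, 96.0 and 105 RPKM in FSC-A High and 63.2, 51.2 and 45.8 RPKM in FSC-A Low. It rose by a log2 difference of 0.78 (SE 0.17, adjusted p = 0.00461), with means of 91.9 ± 10.8 and 53.4 ± 8.95 RPKM. That call ended with each library scaled to its total of RPKM values (0.47, adjusted p = 0.0537), where the median of all genes fell to -0.30, and after removal of the trend on expression level (0.48, adjusted p = 0.0612). With the trend on length and GC content removed instead, the difference was larger (1.12, limma adjusted p = 0.00085). The exons of Ncaph2 share 19.8% of their bases with Sco2 and Tymp on the opposite strand, so reads of these genes may be mixed. Sco2, a copper chaperone gene of the respiratory chain, stood at 62.2 ± 12.7 and 62.96 ± 6.61 RPKM (log2 difference -0.03, adjusted p = 0.915). Tymp, thymidine phosphorylase, stood at 30.5 ± 5.97 and 30.5 ± 3.69 RPKM (-0.01, adjusted p = 0.969).

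Ncapd3, the HEAT-repeat subunit that corresponds to Ncapd2 (chromosome 9, 27030165 to 27096522), stood at 9.86, 11.8, 13.1 and 9.63 RPKM in FSC-A High and 8.02, 8.59 and 4.75 RPKM in FSC-A Low. The gates did not overlap, yet the gap between them was small, and the log2 difference of 0.60 (SE 0.28, adjusted p = 0.133) did not pass. It passed once the trend on transcript length and GC content was taken out of each library (0.97, adjusted p = 0.0330). Ncapg2, which corresponds to Ncapg (chromosome 12, 116405351 to 116463532), was near the filter of 1 RPKM everywhere. Its FSC-A High libraries stood at 1.71, 1.15, 0.924 and 0.6004 RPKM and its FSC-A Low libraries at 1.014, 0.486 and 1.14 RPKM, worth about 223 to 524 reads each. These ranges overlapped, and the log2 difference was 0.15 (SE 0.33, adjusted p = 0.774).

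**Figure D3:**
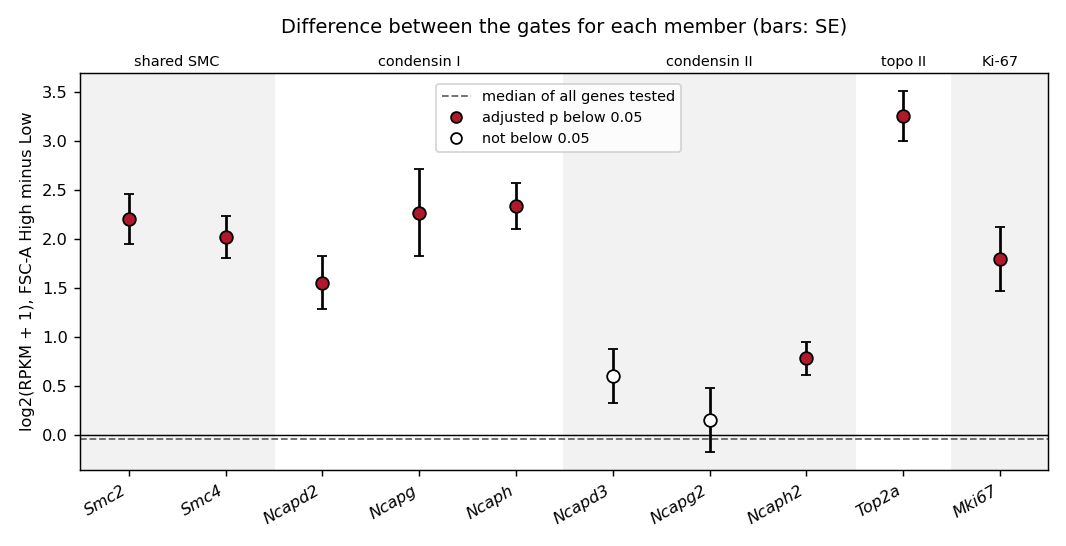
Difference in mean log2(RPKM + 1) between FSC-A High (4 libraries) and FSC-A Low (3) for each member, with the SE as bars; filled points passed an adjusted p below 0.05 in limma. The shared, condensin I, Top2a and Mki67 points lie between 1.55 and 3.25, and the condensin II points between 0.15 and 0.78; the dashed line is the median of all genes tested, -0.04.

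Averaged over subunits, the mean log2(RPKM + 1) of condensin I was 4.70 ± 0.16 in FSC-A High against 2.65 ± 0.48 in FSC-A Low. That of condensin II was 3.72 ± 0.08 and 3.21 ± 0.17, and that of the SMC pair 4.91 ± 0.18 and 2.81 ± 0.12. The condensin I mean minus the condensin II mean was 0.92, 0.87, 0.81 and 1.32 in the FSC-A High libraries and -1.24, -0.49 and 0.05 in the FSC-A Low libraries. By this mean of logs, condensin I genes were the higher set in all 4 FSC-A High libraries and in 1 of 3 FSC-A Low libraries. The mean gives Ncapg2, near 1 RPKM, the same weight as Ncaph2. In RPKM, Ncaph2 was above every condensin I gene in each gated library. The averages therefore do not say which set had more RNA in total. These averages are descriptions with no test.

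Each condensin I subunit was set beside its condensin II counterpart within the same library. The log2 ratio of Ncaph to Ncaph2, taken on RPKM + 1, was -0.96, -1.06, -1.13 and -0.77 in FSC-A High against -2.56, -2.87 and -2.17 in FSC-A Low. Ncaph was below Ncaph2 in every gated library, and less so in FSC-A High (difference 1.56, two-sided exact permutation p = 0.0286, 0.0476 adjusted over 5 pairs). The ratio of Ncapg to Ncapg2 was 2.10, 2.79, 2.78 and 3.60 against -0.72, 1.63 and 1.19, a difference of 2.12 with the same exact p values. Without FSC-A Low replicate 1, the library low in Ncapg, that difference was 1.41 (exact permutation, adjusted p = 0.111 over 5 pairs), and with a pseudocount of 5 in place of 1 it was 1.28 in all 7 libraries. For Ncapd2 over Ncapd3 the ratios were 1.61, 0.88, 0.77 and 1.15 against -0.45, -0.23 and 1.13, which overlap (difference 0.95, exact permutation p = 0.114, adjusted 0.143). In the SMC pair the ratio of Smc4 to Smc2 was 0.77 ± 0.22 in FSC-A High against 0.95 ± 0.32 in FSC-A Low (difference -0.18, exact permutation p = 0.486, adjusted 0.486). With 4 against 3 libraries the smallest p this test can give is 0.0286. Every pair that passed, Top2a over Top2b among them, stands at this smallest p. Their adjusted p therefore depends on how many of the 5 pairs reach it. Leaving out any library makes a p below 0.05 unreachable.

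**Figure D4:**
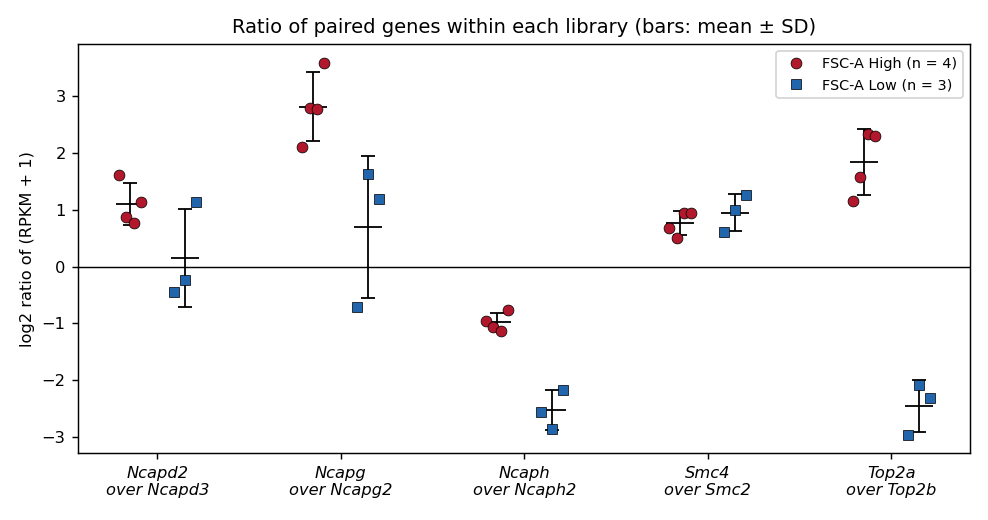
Log2 ratio of (RPKM + 1) for 5 pairs of genes within each gated library (red circles, 4 FSC-A High; blue squares, 3 FSC-A Low), with mean ± SD. The gates are apart for Ncapg over Ncapg2, Ncaph over Ncaph2 and Top2a over Top2b, and overlap for Ncapd2 over Ncapd3 and Smc4 over Smc2.

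Top2a had the largest difference of the members. It lies on chromosome 11 (98992947 to 99024199) and stood at 27.9, 29.3, 34.9 and 33.2 RPKM in FSC-A High and 1.69, 3.41 and 2.26 RPKM in FSC-A Low. The means of 31.3 ± 3.25 and 2.45 ± 0.875 RPKM have a ratio of 12.8, and the log2 difference was 3.25 (SE 0.26, limma adjusted p = 3.64e-06), the 34th largest rise among the 10619 genes. Its paralog Top2b, which is made in resting as well as dividing cells, went the other way, at 11.97, 9.11, 6.08 and 5.95 RPKM in FSC-A High and 20.01, 17.7 and 15.3 RPKM in FSC-A Low. Top2b fell by 1.05 on the log2 scale (SE 0.28, adjusted p = 0.0155), a call that ended without FSC-A Low replicate 1 (adjusted p = 0.0567) and once the length and GC trend was taken out (-0.80, adjusted p = 0.0729). Top2a was above Top2b in all 4 FSC-A High libraries and below it in all 3 FSC-A Low libraries. Their log2 ratio was 1.85 ± 0.58 and -2.46 ± 0.46 (difference 4.30, exact permutation p = 0.0286, adjusted 0.0476).

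Mki67, on chromosome 7 (135689784 to 135716450), was a low gene by RPKM, at 4.15, 3.84, 5.91 and 6.37 in FSC-A High against 0.378, 1.22 and 0.669 in FSC-A Low. No FSC-A Low library reached the lowest FSC-A High library. The means were 5.07 ± 1.26 and 0.756 ± 0.429 RPKM, a ratio of 6.70, and the log2 difference was 1.79 (SE 0.33, adjusted p = 0.00164). Because the pseudocount of 1 is large beside such low values, the difference was 2.17 with a pseudocount of 0.5 and 0.80 with 5, and it passed with both. The Mki67 transcript, 10061 nt, is the longest of the members, whose shortest is 2695 nt, against a median of 2544 nt over the tested genes with a length.

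By mean RPKM the order in FSC-A High was Ncaph2, Ncaph, Smc4, Top2a, Ncapd2, Smc2, Ncapg, Ncapd3, Mki67 and Ncapg2. The neighbours Ncaph and Smc4, Smc4 and Top2a, Top2a and Ncapd2, Ncapd2 and Smc2, and Ncapg and Ncapd3 had overlapping libraries, and the other steps did not. In FSC-A Low the order was Ncaph2, Smc4, Ncaph, Ncapd2, Ncapd3, Smc2, Ncapg, Top2a, Ncapg2 and Mki67. Only Ncaph2, at the top, and the step from Top2a to Ncapg2 were free of overlap between neighbours there. Top2a was thus in place 4 in FSC-A High but in place 8 in FSC-A Low.

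Genes that act on condensin were taken as a list chosen with earlier results of these data known. Of its 15 genes, 14 were tested, 6 rose, 2 fell and 6 did not pass, with a median log2 difference of 0.54. Among all genes tested, 15.6% were called higher and 11.7% lower. The largest rises were those of kinases that phosphorylate mitotic chromosome proteins. Cdk1, the kinase that drives entry into mitosis, stood at 109.8 ± 9.89 and 7.43 ± 2.43 RPKM (log2 difference 3.76, adjusted p = 2.26e-07), Aurkb at 172 ± 7.62 and 11.1 ± 5.55 RPKM, and Plk1 at 83.5 ± 15.3 and 5.88 ± 3.83 RPKM. Kif4, a chromokinesin that binds condensin, and Csnk2b were among the other risers. Ppp2ca, a catalytic subunit of protein phosphatase 2A, fell from 44.3 ± 21.5 RPKM in FSC-A Low to 14.0 ± 8.07 in FSC-A High (log2 difference -1.63, adjusted p = 0.00838), though its libraries overlapped and the call was lost with no filter on low values (adjusted p = 0.0777). Akap8, an anchoring protein that recruits condensin to chromatin, was at 8.43 ± 2.48 and 19.4 ± 3.69 RPKM (-1.14, adjusted p = 0.00922). Mcph1, which restrains condensin II, stood at 6.17 ± 2.08 and 3.61 ± 1.75 RPKM and did not pass (adjusted p = 0.192).

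Among 12 other topoisomerases and their partners, 2 rose, 1 fell and 9 did not pass, with a median of 0.24, beside 27.3% called among all genes tested. Beside Top2b, the genes called were Tdp1, at 48.95 ± 10.04 and 25.5 ± 5.90 RPKM, and Tdp2, at 98.8 ± 12.3 and 58.1 ± 15.9 RPKM, which encode phosphodiesterases that release trapped topoisomerases from DNA. Tdp2 did not pass with library totals as the scale (adjusted p = 0.0986), without the filter on low values (0.0528), or after removal of the length and GC trend (0.109) or the level trend (0.115). Top1 stood at 10.4 ± 1.88 and 8.75 ± 0.387 RPKM and did not pass (adjusted p = 0.569).

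Of 16 partners of Ki-67 and proteins of the chromosome periphery, 7 rose, none fell and 9 did not pass, with a median of 0.40. The shares over all genes tested were 15.6% called higher and 11.7% lower. Cdca2, or Repo-Man, a targeting subunit of protein phosphatase 1 that is recruited to chromosomes late in mitosis, stood at 32.7 ± 4.03 and 4.97 ± 1.32 RPKM (log2 difference 2.51, adjusted p = 1.94e-05). Banf1, which helps the nuclear envelope to form around the chromosome mass, stood at 724 ± 69.1 and 256 ± 51.2 RPKM, and the nucleolar chaperone gene Npm1 at 318 ± 33.9 and 157 ± 12.1 RPKM. Nifk, a nucleolar protein that binds the FHA domain of Ki-67, stood at 70.0 ± 11.1 and 56.1 ± 2.32 RPKM and did not pass (adjusted p = 0.209). Among 10 genes of other SMC proteins and the Smc5/6 complex, 2 rose, 1 fell and 7 did not pass, with a median of 0.30, again beside 27.3%. Nsmce1 (202 ± 31.9 against 75.1 ± 11.4 RPKM) and Nsmce2 (89.0 ± 12.6 against 36.2 ± 6.83) rose. Nsmce4a (102 ± 14.2 against 158 ± 46.6, adjusted p = 0.0491) was the call in the other direction, and it was lost under 11 of 20 alternatives, among them leaving out any of 6 of the 7 libraries. The cohesin ATPase genes Smc1a, at 45.7 ± 5.81 and 32.6 ± 5.70 RPKM, and Smc3, at 38.9 ± 4.04 and 37.0 ± 3.88 RPKM, did not pass. The shares called in the lists of topoisomerases and of other SMC proteins are near the 27.3% of all genes tested and are no result about those lists.

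Profiles over the 7 gated libraries were compared by the root mean square difference between log2 values centred on each gene's own mean, among genes with a mean log2 value of at least 4. Predicted genes, Riken and other clones, microRNA genes and pseudogenes, known by their symbols, were left out before ranking. For Top2a, whose profile spans 3.74 log2 units, the nearest were Cdc20 (0.26), which switches on the ubiquitin ligase that starts anaphase, Shcbp1 (0.27) and Prc1 (0.28), which bundles microtubules of the central spindle. For Mki67, with a span of 2.42, they were the proteasome subunit gene Psmb7 (0.11), Rpa3 (0.19), a subunit of the single-strand DNA binding protein, and Snrnp25 (0.20). Ncaph2 (span 1.18) was nearest to Ctsa (0.08), Nudt16l1 (0.09) and Nubp2 (0.09), and Ncapg2 (span 0.87) to Actn4 (0.08), Cog2 (0.11) and Mrps26 (0.12). The pseudocount of 1 flattens the profiles of low genes such as Mki67 and Ncapg2 more than those of the genes they were matched to, so these matches rest on it: Psmb7 had means of 58.4 and 16.1 RPKM, a smaller ratio than that of Mki67.

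The unfractionated libraries come in another unit, reads per gene divided by a size factor per library, and were never tested against the gated ones. They held 30889443, 21307178, 27206879 and 29952311 reads in replicates 1 to 4. Replicate 4 stood apart: the ribosomal RNA precursor Rn45s took 15.2% of its reads, against 3.06% to 5.26% in the others, and 11384 genes had a read, against 12909 to 13368. The part of these in the levels of the members was not tested. Divided by transcript length, Smc4 stood at 1620, 1798, 1706 and 756 normalized reads per kilobase in replicates 1 to 4, and Ncaph2 at 1544, 1253, 1072 and 1584. These were the highest members by mean. Top2a stood at 1350, 980.2, 1081 and 422, and Smc2 at 812, 770.2, 1217 and 281. In both genes replicate 4 was the low library, as it was in 8 of the 10 members.

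Mki67 in the unfractionated libraries stood at 672, 402, 609 and 28.4 normalized reads per kilobase, that is 8892, 3678, 7253 and 322 reads. Its replicate 4 value was far below the lowest of the other three. Condensin I followed the same order of libraries only in part: Ncapd2 stood at 582, 419, 597 and 273, Ncapg at 562, 232, 493 and 101, and Ncaph at 412, 303, 933 and 186. Replicate 4 was below the others in each of them. In condensin II the picture was mixed. Ncapd3, at 284, 223, 365 and 389, and Ncaph2 were highest in replicate 4. Ncapg2, at 140.2, 187 and 232 in replicates 1 to 3, had 0 of 29952311 reads in replicate 4, where a count of 0 allows up to 3 reads, a limit for counting error only. By mean the order was Smc4, Ncaph2, Top2a, Smc2, Ncapd2, Ncaph, Mki67, Ncapg, Ncapd3 and Ncapg2, and the libraries of every pair of neighbours overlapped. Without replicate 4, an order added after the data were seen, Mki67 moved up from place 7 to place 5, ahead of Ncaph and Ncapd2. Smc4 at 1708 ± 89.1 normalized reads per kilobase (SD, n = 3) was then above Ncaph2 at 1289.7 ± 238 with no overlap, and Smc2 was free of overlap with Mki67. Ncapg2 was thus the lowest member by mean here and in FSC-A High, and the lowest but Mki67 in FSC-A Low.

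**Figure D5:**
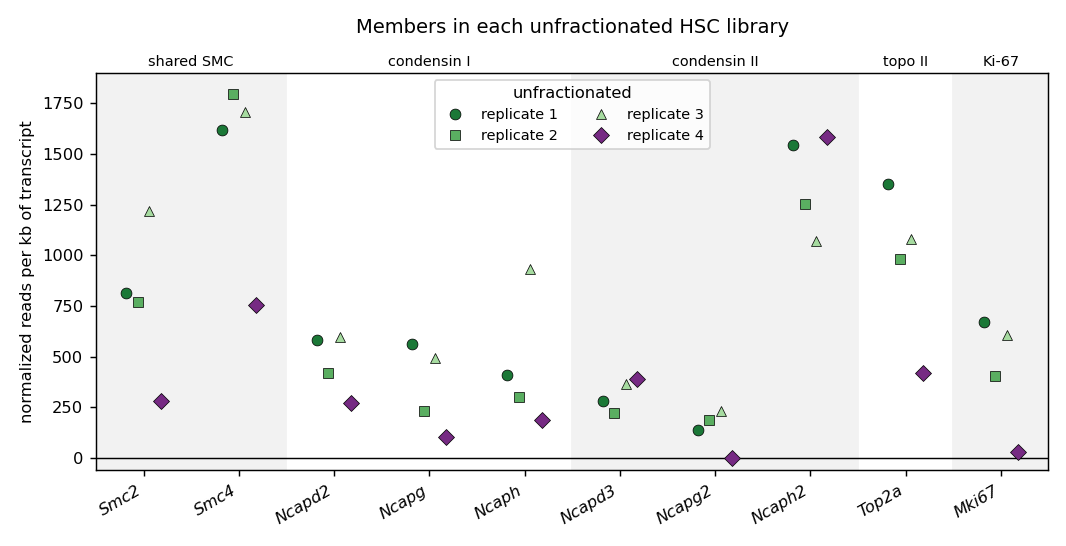
Normalized reads per kilobase of transcript for the 10 members in the 4 unfractionated libraries, with 1 symbol per replicate. Replicate 4 (purple diamonds) is the lowest in 8 members and the highest in Ncapd3 and Ncaph2, the condensin II subunits other than Ncapg2.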

How the data were processed

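RNA of 11 HSC libraries was analysed: 4 FSC-A High, 3 FSC-A Low and 4 unfractionated, grouped by their titles in the labels. STAR, DESeq2 and mm10 appear in the submitters' processing notes without versions or roles. The deposited gated files hold 1 value per RefSeq transcript (33984 rows), taken from the values as RPKM since values times GENCODE M21 transcript lengths sum to 1.02 to 1.03 times the total that RPKM would give; no label or header names the unit, and RPKM and FPKM cannot be told apart. Depth was estimated from the step between low values. The deposited unfractionated files hold a signal that is whole reads (100% of values within 0.01) divided by 1 size factor per library; a count test has nothing to compare in this single group. Differing tables were kept apart.

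Each gene was represented by the transcript whose mean RPKM across the 7 gated libraries was highest. Members, lists and the search words were chosen with earlier results of these data known. The gates were set against each other by limma 3.58.1 under R 4.3.3 (eBayes with trend, group only) on log2(RPKM + 1) for the 10619 genes that reached 1 RPKM in 3 or more libraries; this scale understates the change of low genes. Log ratios of 5 gene pairs were tested by two-sided exact permutation over libraries. Named were the members, up to 3 called genes with the smallest p and any call against the majority in each of 4 lists, the 3 nearest profiles of 4 members, and Top2b; other list genes given with values (Kif4, Csnk2b, Mcph1, Top1, Nifk, Smc1a and Smc3) and the exon neighbours Sco2 and Tymp were picked after their values were seen. Some list genes are not reported here by name. The limma step was checked on simulated data with 200 of 10619 genes changed. It recovered 54% of log2 changes of 1 and 100% of changes of 2, and 6.1% of its calls were false. Far fewer genes were changed there than the 2902 called in the data. Its noise was independent, with the same spread for all genes of a level. These rates therefore need not hold for the real libraries. The alternatives were 4 scalings (TMM by edgeR 4.0.16 among them), 0.5 or 5 as the pseudocount, the filter left out or set at 5, each library left out, the replicate number as a block, the sum over transcripts, sample quality weights, and splines with 5 degrees of freedom over length and GC content or over level. Python 3.11.15, pandas 2.3.3 and matplotlib 3.10.9 were used.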

Additional observations from a re-analysis of the deposited data

Results flagged for a closer look

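A gap test was run on the 4 FSC-A High and the 4 unfractionated libraries for the 10 members and Top2b, 22 groups in all, of which chance flags about 1 in 20. In Ncapd2, FSC-A High replicate 1 stood at 32.2 RPKM, with the other libraries between 22.5 and 23.0. In Ncaph, FSC-A High replicate 4 stood at 61.3 RPKM, with the others between 39.9 and 43.4. In Smc4, unfractionated replicate 4 stood at 3261 normalized reads, with the others between 6991 and 7760; this is the library in which Rn45s took 15.2% of reads, and the part of that in the level of Smc4 was not tested. Without FSC-A High replicate 1, the log2 difference of Ncapd2 was 1.43, and without FSC-A High replicate 4 that of Ncaph was 2.20.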

How the results depend on the processing

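Over 20 alternatives the number of members called higher was 7 to 9, and in every run that left out a library it was 8. Of all genes, 2902 were called, or 1807 after removal of the length and GC trend; 1657 were called higher, or 1026 with that trend removed and 978 with library totals as the scale, where 30.1% of calls were higher in place of 57.1%, and 49.6% with upper quartile scaling. Without a library in turn, 2218 to 2805 genes were called, 1313 to 1639 of them higher. Mki67 and Ncapg2 fell under the filter at 5 RPKM. The log2 difference of Ncapg2, which never passed, turned to -0.0022 with library totals and -0.011 without FSC-A Low replicate 2 (0.27 without FSC-A High replicate 4). Among its nearest profiles, Actn4 turned to -0.027 (upper quartile), -0.25 (library totals), -0.06 (without FSC-A High replicate 1), -0.12 (without FSC-A Low replicate 2; 0.16 without FSC-A High replicate 4) and -0.16 (level trend removed), Cog2 to -0.060 (library totals) and -0.014 (without FSC-A Low replicate 2; 0.37 without FSC-A Low replicate 3), and Mrps26 to -0.053 (library totals) and -0.18 (level trend removed); none of these passed, and the cause was not tested. Mrps26 passed after removal of the length and GC trend (0.62, adjusted p = 0.0207). With a pseudocount of 5, the Smc4 to Smc2 difference was 0.081. Without a library in turn, the pair differences were 1.41 to 2.58 for Ncapg over Ncapg2, 1.39 to 1.74 for Ncaph over Ncaph2 and 4.05 to 4.53 for Top2a over Top2b; none passed, since 6 libraries cannot give a p below 0.05. Same-numbered libraries of the gates did not deviate together (r = -0.03, 0.06 and 0.0001 over genes, against -0.09 to 0.09 for differently numbered ones). With deviations taken from means of only 4 and 3 libraries, this cannot settle whether the numbers mark shared animals, which the labels do not give. The replicate block called 2431 genes and the same 8 members, and left FSC-A High replicate 4 without a partner; with 3 pairs (smallest possible p 0.25) it gave 1.86 for Ncapg over Ncapg2, 1.49 for Ncaph over Ncaph2 and 4.15 for Top2a over Top2b. Depth limits the low values: the lowest gated library had an estimated 60.2 reads of Ncapg, 223 of Ncapg2 and 274 of Mki67, from amplified cDNA.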

Other observations

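The level of Mki67 relative to Top2a, both per length, differed between libraries. Mki67 stood at 14.9%, 13.1%, 16.95% and 19.2% of Top2a in FSC-A High replicates 1 to 4 and at 22.3%, 35.9% and 29.6% in FSC-A Low replicates 1 to 3. In the unfractionated libraries, which were quantified in another way, it stood at 49.7%, 41.05%, 56.3% and 6.74% in replicates 1 to 4. No test was run on these shares. Unfractionated replicate 4 was low in Mki67 and had no Ncapg2 reads while its Ncapd3 and Ncaph2 were the highest of the 4 libraries; its larger share of Rn45s reads and fewer detected genes, given above, move with this, and their part in it was not tested.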
